A study of Mus musculus with 12 samples.

Results

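The genes described here encode 9 proteins of the postsynaptic density, the protein-rich plate beneath the membrane of excitatory synapses: Dlg4, Dlgap1, Shank1, Shank2, Shank3, Homer1, Camk2a, Camk2b and Nrgn. They were chosen by name, each was found once in both deposited tables among 48526 genes, and all 9 were among the 9846 genes tested. RNA came from the cortex of 12 untreated C57Bl/6 mice. There were 3 mice in each of 4 groups: non-transgenic controls at 3 months, mice labelled transgenic for TAU58/2 at 3 months, non-transgenic controls at 10 months and mice labelled transgenic for TAU58/2 at 10 months. TAU58/2 mice carry human tau with the P301S mutation under the neuronal Thy1 promoter, so the transgene is driven in neurons. Expression was measured as FPKM, fragments scaled to transcript length and to the fragments mapped in the library, in ribosome-depleted stranded libraries. A study of this design asks which cortical transcripts differ with the tau transgene at an early and a later age.

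At an excitatory synapse, Dlg4 (PSD-95) gathers glutamate receptors at the membrane, Dlgap1 (GKAP, also called SAPAP) links Dlg4 to the Shank proteins, and Shank proteins bind Homer1, which reaches group I metabotropic glutamate receptors. Camk2a and Camk2b are the main subunits of the calcium- and calmodulin-dependent kinase II that accumulates in the density when calcium enters. Nrgn (neurogranin) is a small neuronal protein that binds calmodulin when calcium is low. In cortex the kinase and Nrgn are most abundant in pyramidal neurons, and loss of postsynaptic proteins is a known feature of tau disease models.

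Promoter windows are shown for Dlg4, the most even of the 9 genes, and Homer1, which stood apart in 1 library. RefSeq windows of 300 bases, from 250 bases before a transcript start to 50 after it, were available for 6 of the 9 genes and comprised 10 windows. Capitals mark GGGCGG (GC box) or TGACG (the core of a cAMP response element), on either strand, so that a GC box on the opposite strand reads CCGCCC. Of 32851 mouse promoters of this length, 35.7% held GGGCGG and 20.8% held TGACG on either strand. The third of 3 Dlg4 windows held 2 GC boxes and 1 TGACG, and the first of 2 Homer1 windows held 3 TGACG and no GC box. The other Dlg4 and Homer1 windows held neither motif. Both sequences are written 5′ to 3′ from RefSeq, build GRCm38.p6, plus strand.
Dlg4, chr11:70023732-70024031: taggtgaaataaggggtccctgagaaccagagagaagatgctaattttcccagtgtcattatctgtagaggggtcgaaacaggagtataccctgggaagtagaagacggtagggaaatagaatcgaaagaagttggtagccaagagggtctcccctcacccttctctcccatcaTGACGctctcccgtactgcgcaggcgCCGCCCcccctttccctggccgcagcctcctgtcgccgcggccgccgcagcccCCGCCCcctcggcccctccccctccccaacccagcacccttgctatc
Homer1, chr13:93303507-93303806: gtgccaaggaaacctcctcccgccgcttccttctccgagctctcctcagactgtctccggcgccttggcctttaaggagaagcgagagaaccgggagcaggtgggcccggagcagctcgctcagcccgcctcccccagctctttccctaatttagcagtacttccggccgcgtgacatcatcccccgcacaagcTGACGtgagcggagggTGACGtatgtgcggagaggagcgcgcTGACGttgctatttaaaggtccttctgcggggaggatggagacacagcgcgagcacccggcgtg
Neither TATAAA nor CACGTG (an E-box) occurred in these 2 windows, against 13.6% and 7.15% of the same 32851 promoters. These matches describe letters in the windows and were not tied to expression.

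In build GRCm38 the scaffold genes lie on 5 chromosomes: Dlg4 (ENSMUSG00000020886) at chr11:70016942-70047522, Dlgap1 (ENSMUSG00000003279) at chr17:69969073-70821413, Shank1 (ENSMUSG00000038738) at chr7:44310253-44360572, Shank2 (ENSMUSG00000037541) at chr7:144001928-144424494, Shank3 (ENSMUSG00000022623) at chr15:89499623-89560261 and Homer1 (ENSMUSG00000007617) at chr13:93299635-93405129, all on the plus strand. Camk2b (ENSMUSG00000057897) at chr11:5969644-6066362 and Nrgn (ENSMUSG00000053310) at chr9:37544492-37552904 are on the minus strand, and Camk2a (ENSMUSG00000024617) is on chromosome 18. Shank1, Shank2, Shank3 and Dlgap1 each overlap 1 or 2 annotated genes on the opposite strand. The kit marks strand, but whether reads were assigned by strand is not given in the sources used here, so overlapping reads cannot be told apart in these 4. Shank1, Shank2, Homer1 and Camk2a also overlap 1 or 2 annotated genes on their own strand, which strand does not separate.

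Across the libraries the 9 genes spanned a wide range of levels, and FPKM, which is scaled to transcript length, allows genes to be compared. The mean over 12 libraries was highest for Nrgn, at 828 ± 353 FPKM (SD, n = 12), followed by Camk2a at 348 ± 96.8 and Dlg4 at 113 ± 15.5. Camk2b averaged 58.3 ± 11.3 FPKM and Shank3 13.4 ± 4.75. Dlgap1 at 6.27 ± 1.97, Shank1 at 4.54 ± 2.58 and Homer1 at 3.23 ± 3.08 FPKM lay close together, and Shank2 was listed at 0 in 10 of 12 libraries. Nrgn stood above 99.9% of the genes tested and Homer1 above 41.3%. Of the 8 neighbouring pairs in this order, 6 differed by an exact two-sided sign-flip test over the 12 libraries, with adjusted p of at most 0.0026. Dlgap1 and Shank1 did not differ beyond their spread (Dlgap1 higher in 8 of 12 libraries, exact adjusted p = 0.0798), and neither did Shank1 and Homer1 (Shank1 higher in 9 of 12, exact adjusted p = 0.186).

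**Figure D1:**
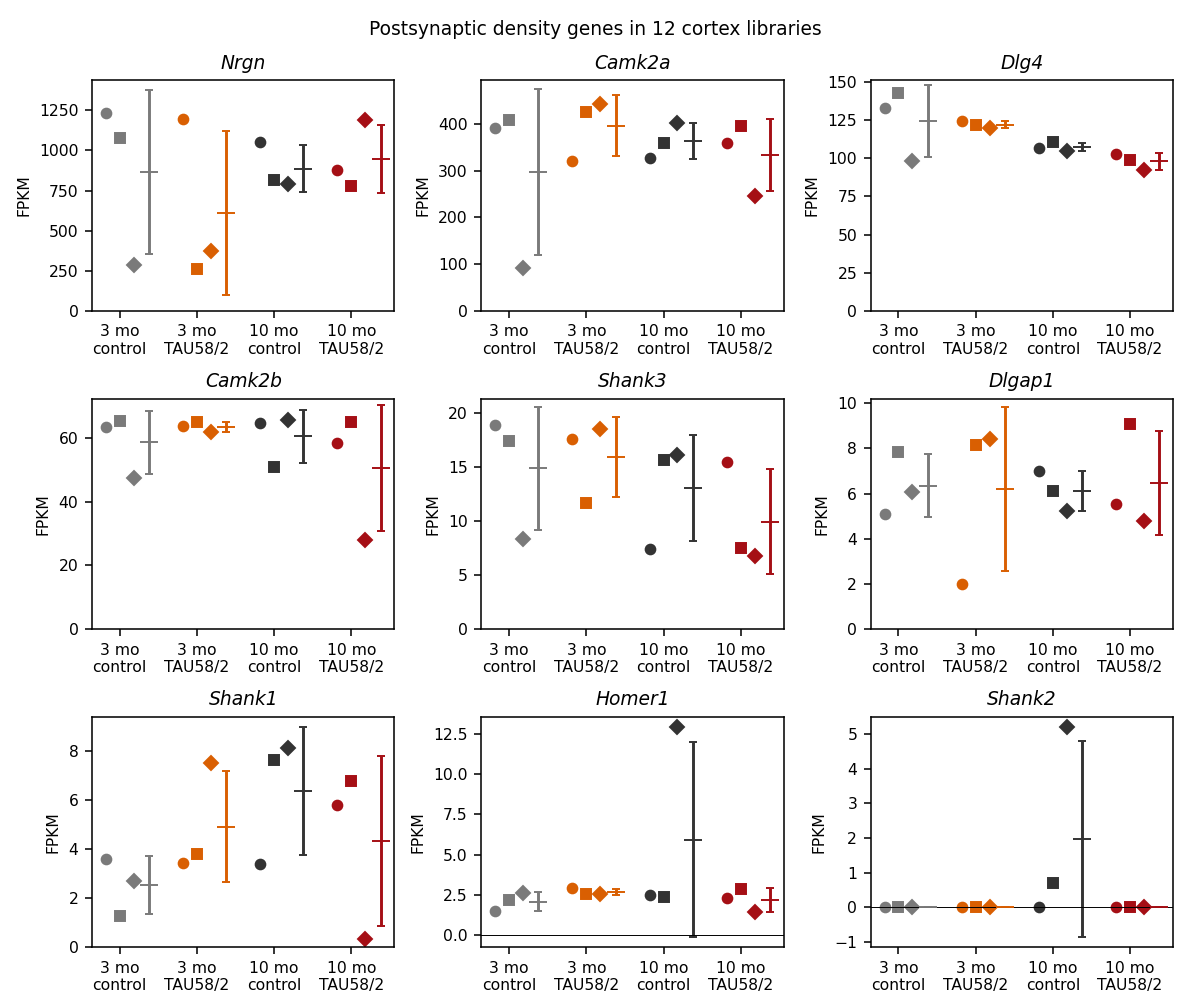
FPKM of the 9 genes (vertical axis, linear) in 12 libraries, grouped by age and genotype label. Circles, squares and diamonds are replicates 1, 2 and 3, which are not paired between groups, and horizontal bars with error bars give the mean and SD of 3 libraries. Dlg4 lay between 92.1 and 143 FPKM in every library, whereas Nrgn, Camk2a, Shank1, Homer1 and Shank2 each had libraries far from the rest.

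Several facts of the whole series bear on these genes. Libraries held 12828 to 13914 genes above 0 and summed to 125933 to 158077 FPKM, while their read depth is not known. Mapt and Thy1 were used to check the genotype labels, because the transgene is a tau construct with Thy1 sequence. At 3 months Mapt was 43.3 to 47.6 FPKM in the TAU58/2 libraries and 6.64 to 12.0 in controls, without overlap (exact permutation p = 0.1, the smallest 3 against 3 allows). At 10 months the labels did not separate: Mapt under the transgenic label was 42.6, 12.4 and 3.31 FPKM, and under the control label 42.7, 8.13 and 9.08 (exact p = 0.9), and Thy1 overlapped as well (exact p = 0.4). Every direction at 10 months below is therefore between libraries by their label. Library 10-month transgenic 1 held the pituitary hormone genes Gh at 11228 and Prl at 1482 FPKM, against at most 37.4 FPKM of Gh elsewhere. Fewer cells of a type and less RNA per cell cannot be told apart in this tissue.

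None of the 9 genes passed the test between TAU58/2-labelled and control libraries at 10 months. In limma's moderated test on log2(FPKM + 0.1), with Benjamini-Hochberg adjustment over all 9846 genes, their adjusted p ranged from 0.969 to 1. The background was 0.0102% of genes called, which is 1 gene. At an unadjusted p under 0.05 there was 1 of the 9, beside 4.4% of all genes. That gene was Shank2, which entered the test only through a group where it was high, so nothing is read from this count. At 3 months none was called either, with an adjusted p of 1 for all 9 and a background of 0.0406%, and 0 of 9 had an unadjusted p under 0.05, against 3.39% of all genes. The test of whether the genotype difference changed with age called 0 of 9 at a background of 0.0508%, with adjusted p of 0.987 for each.

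Dlg4 had the most even level of the 9. In 3-month controls it measured 133, 143 and 98.0 FPKM, and in 3-month TAU58/2 mice 125, 122 and 120. In 10-month controls it measured 107, 110 and 105 FPKM, and in 10-month libraries labelled transgenic 103, 99.2 and 92.1. The 3-month groups overlapped, whereas at 10 months all 3 libraries labelled transgenic lay below all 3 controls. The means at 10 months were 97.9 ± 5.35 FPKM under the transgenic label and 107 ± 2.85 FPKM in controls (SD, n = 3). On the log2 scale this was a difference of -0.13 ± 0.16 (SE; 95% interval -0.48 to 0.21; adjusted p = 0.969). Dlg4 was the only one of the 9 whose 10-month groups did not overlap, where 8.26% of all genes did not, and 3.89% did so with the transgenic label lower. In the authors' deposited table, Dlg4 at 10 months had a p-value of 0.0101 and a q-value of 0.843, and no other of the 9 genes had a p-value that low. The 3-month difference was -0.01 ± 0.16 on the log2 scale. Scaling to the mean log2 level of 12 pan-neuronal genes gave 0.20 at 10 months and 0.27 at 3 months, so the direction depends on the reference. That mean was moved mostly by Uchl1, with log2 differences of -3.47 at 10 months and -2.23 at 3 months. At 3 months it was also moved by Snhg11 at -2.16 and, in the other direction, by Thy1 at 1.83. Thy1, 1 of the 12, was also used above to check the genotype labels. The median of the 12 was -0.03 at 10 months and -0.17 at 3 months.

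Dlgap1, the link between Dlg4 and the Shank proteins, showed no group pattern. Its controls at 3 months measured 5.11, 7.85 and 6.07 FPKM and the TAU58/2 libraries 2.00, 8.13 and 8.43. At 10 months the controls measured 7.00, 6.09 and 5.22 FPKM and the libraries labelled transgenic 5.54, 9.08 and 4.76. The single low value was in 3-month transgenic 1, and groups overlapped at both ages. Log2 differences were -0.27 ± 0.50 (SE) at 3 months and 0.04 ± 0.50 at 10 months.

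Of the Shank genes, which encode the large scaffolds that stack deeper in the density, Shank3 was the most abundant. Its 3-month controls were at 18.9, 17.4 and 8.37 FPKM and the 3-month TAU58/2 libraries at 17.6, 11.7 and 18.5. Its 10-month controls were at 7.37, 15.6 and 16.1 FPKM and those labelled transgenic at 15.5, 7.50 and 6.78. Values of 6.78 to 8.37 FPKM and of 15.5 to 18.9 FPKM both occurred in 3 of the 4 groups, so the groups overlapped. The log2 difference was 0.15 ± 0.44 (SE) at 3 months and -0.41 ± 0.44 at 10 months, where leaving out 1 library gave -0.78 to -0.19, the latter without 10-month transgenic 3.

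Shank1 measured 3.62, 1.29 and 2.72 FPKM in 3-month controls and 3.45, 3.81 and 7.53 in 3-month TAU58/2 mice. In 10-month controls it measured 3.40, 7.63 and 8.12 FPKM, and in libraries labelled transgenic 5.82, 6.80 and 0.359. The value of 0.359 FPKM in 10-month transgenic 3 was its lowest by a wide margin, and the other values of that group lay within the control range. The log2 difference at 10 months was -1.19 ± 0.93 (SE) with that library and 0.08 without it, and that at 3 months was 0.96 ± 0.93.

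Shank2 was listed at 0 in all 3-month libraries, in all 10-month libraries labelled transgenic and in 10-month control 1. It was 0.708 FPKM in 10-month control 2 and 5.19 in 10-month control 3. It passed the expression filter, a group mean of 1 FPKM or more, only through that group, so its place among the genes tested was decided by the group where it was high. No fold is given against a group listed at 0. Its limma test at 10 months gave an unadjusted p of 0.0406 and an adjusted p of 0.969, the only unadjusted p under 0.05 among the 9 genes. An entry of 0 need not mean absence, since the neuronal gene Slc32a1 and the astrocyte gene Gja1 were also listed at 0 in 2 libraries and 1 library of these cortices.

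Homer1, which encodes both a long scaffold form and short forms induced by activity that a gene-level value does not separate, was low and even except in 1 library. It measured 1.49, 2.19 and 2.60 FPKM in 3-month controls and 2.91, 2.58 and 2.59 in 3-month TAU58/2 mice. At 10 months the controls measured 2.51, 2.40 and 12.9 FPKM, and the libraries labelled transgenic 2.30, 2.90 and 1.43. The library with 12.9 FPKM, 10-month control 3, was also the one with the highest Shank2, Shank1 and Camk2b. The log2 difference at 10 months was -0.98 ± 0.59 (SE), and -0.20 without that library, and that at 3 months 0.38 ± 0.59.

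Camk2a, the alpha subunit of the kinase, measured 391, 408 and 92.3 FPKM in 3-month controls and 321, 427 and 443 in 3-month TAU58/2 mice. In 10-month controls it measured 328, 360 and 403 FPKM, and in those labelled transgenic 359, 395 and 246. The 3-month control 3 library stood apart with the lowest value. The log2 difference at 3 months was 0.68 ± 0.49 (SE), and -0.02 without that library. At 10 months it was -0.15 ± 0.49.

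Camk2b, the beta subunit, which binds actin, measured 63.4, 65.4 and 47.3 FPKM in 3-month controls and 63.7, 65.0 and 61.9 in 3-month TAU58/2 mice. In 10-month controls it measured 64.8, 50.9 and 65.7 FPKM, and in those labelled transgenic 58.6, 65.0 and 28.1. All but 4 of the 12 values lay between 60 and 66 FPKM, and the lowest was again 10-month transgenic 3. The log2 difference at 10 months was -0.34 ± 0.29 (SE), and 0.04 without that library, and that at 3 months 0.13 ± 0.29.

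The ratio of Camk2a to Camk2b, a measure of the subunit mix at the RNA level, was 5.04 to 8.78 in 11 libraries and 1.95 in 3-month control 3. Its geometric mean at 10 months was 6.89 under the transgenic label and 6.03 in controls (exact permutation p = 0.6, two-sided, n = 3). At 3 months it was 6.19 in TAU58/2 mice and 4.22 in controls (exact p = 0.5, n = 3). Over 4 such comparisons, by genotype at each age, by genotype over both ages and by age, all adjusted p were 0.6. With 3 libraries a side the smallest exact p is 0.1, so the comparisons within each age could not pass whatever their values. Those by genotype over both ages and by age had 6 libraries a side (exact permutation p = 0.262 and 0.390). In these no difference in the ratio was detectable beyond the spread between mice. The log2 difference of the ratio at 3 months was 0.55, and -0.0049 without 3-month control 3.

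Nrgn, the most abundant, was also among the most uneven. In 3-month controls it measured 1233, 1077 and 283 FPKM, and in 3-month TAU58/2 mice 1198, 264 and 374. In 10-month controls it measured 1055, 816 and 791 FPKM, and in those labelled transgenic 879, 779 and 1187. Three-month libraries of both genotypes split into values of 1077 or more and values of 374 or less, while all 10-month libraries were at 779 or more. The log2 difference was -0.56 ± 0.62 (SE) at 3 months and 0.09 ± 0.62 at 10 months.

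**Figure D2:**
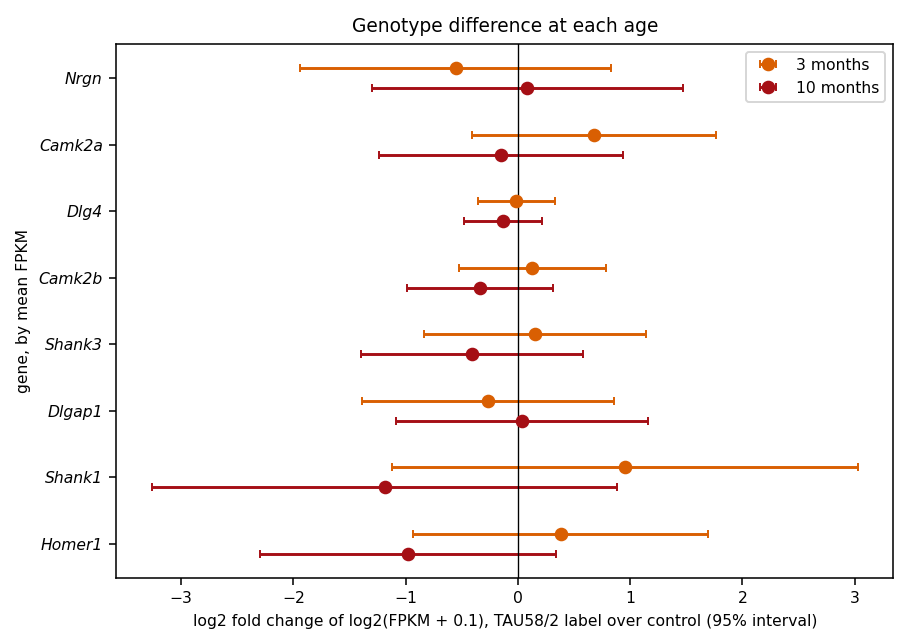
Log2 difference of log2(FPKM + 0.1), TAU58/2 label minus control (horizontal axis), for 8 genes ordered by mean FPKM, with 95% intervals from limma, at 3 months (orange) and 10 months (red), 3 libraries a group. All 16 intervals contain 0, the narrowest are those of Dlg4, and Shank2 is left out because most of its values are listed at 0.

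Shank2 is left out of counts by direction, because the filter that admitted it fixed its direction at 10 months. Of the other 8 genes, 6 had a difference below 0 at 10 months and 3 at 3 months, where 48.8% and 47.1% of all genes did. The median of the 8 log2 differences was -0.24 at 10 months, against 0.01 over all genes tested, and 0.14 at 3 months, against 0.02. None of the single differences behind these counts passed the test. Without 10-month transgenic 3 the count below 0 at 10 months was 4 of 8, and without 3-month control 3 the count at 3 months was 6 of 8. Pan-neuronal scaling moved the median of all genes by 0.34 at 10 months and 0.28 at 3 months, and then 4 of 8 were below 0 at 10 months and 1 of 8 at 3 months.

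Library 10-month transgenic 3 held the lowest value of 5 of the 9 genes, namely Dlg4, Shank1, Shank3, Homer1 and Camk2b. In that library, genes with long transcripts read low throughout the table. Over 801 genes with transcripts of at least 6000 bases, the median log2 deviation from each gene's own median was -0.99, and over 1246 genes with transcripts under 1500 bases it was 0.47. The rank correlation of deviation with transcript length, across genes within that library, was -0.45, and it was -0.20 to 0.28 in the other 11. All genes but Nrgn have a longest annotated transcript of 4125 bases or more, up to 9826 bases for Shank1. Nrgn, whose transcript is 1453 bases, measured 1187 FPKM there, its highest value but 2. Shank1, the longest, deviated by -3.05, Shank3 (7365 bases) by -1.19, Dlgap1 (7173 bases) by -0.35 and Dlg4 (6326 bases) by -0.24. Homer1 (5713 bases) deviated by -0.79, Camk2a (4970 bases) by -0.61 and Camk2b (4125 bases) by -1.18, so these deviations did not follow the order of length. The part of transcript length in the 10-month values was not tested.

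**Figure D3:**
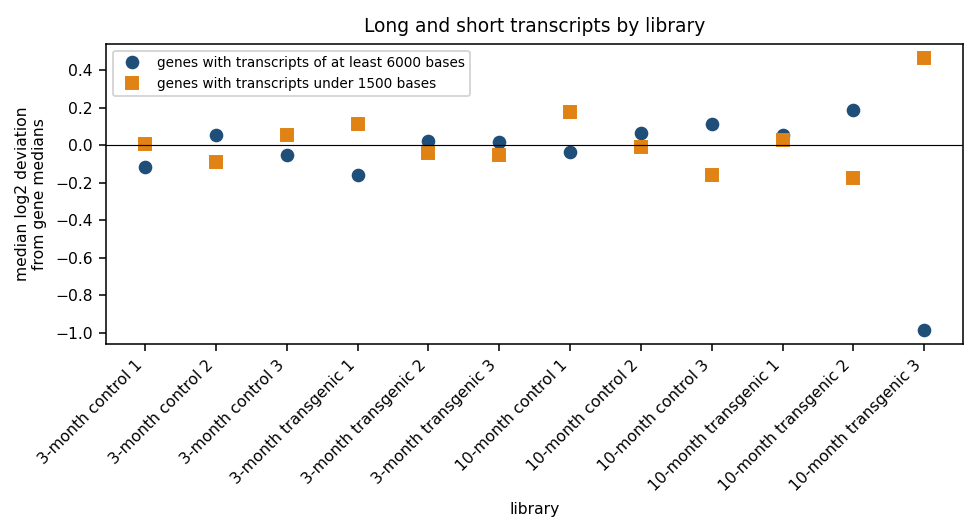
Median log2 deviation from each gene's own median (vertical axis) in 12 libraries (horizontal axis), for 801 genes with transcripts of at least 6000 bases (blue circles) and 1246 genes with transcripts under 1500 bases (orange squares). The 2 medians lie within 0.4 of each other in 11 libraries and at -0.99 and 0.47 in 10-month transgenic 3.

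**Figure D4:**
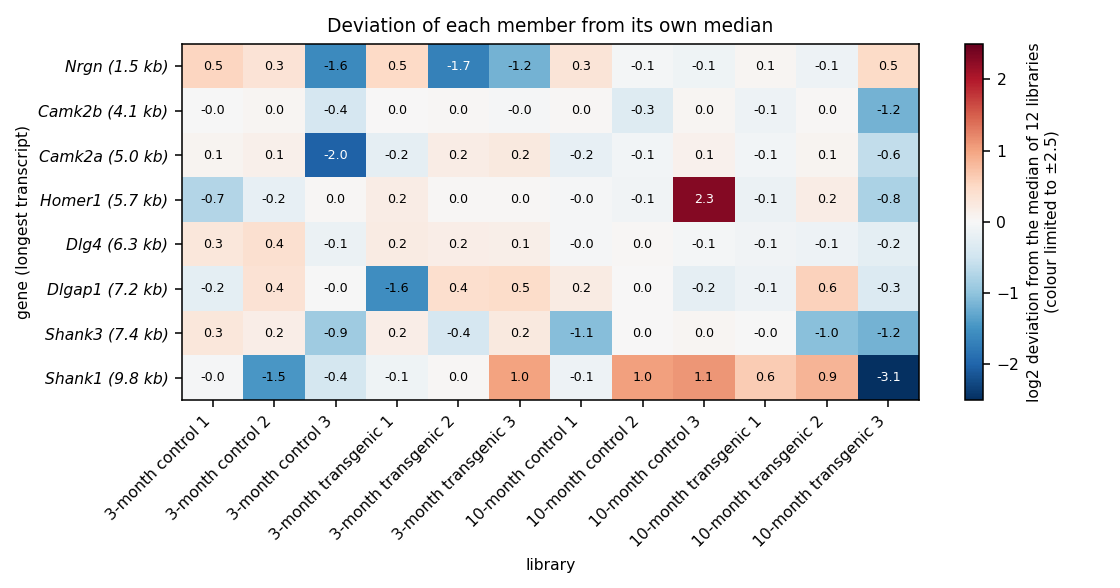
Log2 deviation of 8 genes from their own median over 12 libraries, with genes (rows) ordered by the length of their longest transcript and libraries in columns, where blue is lower, red is higher and colour stops at 2.5 in either direction. Values in 10-month transgenic 3 are below the median for all rows but Nrgn, and 3-month control 3 is low for Camk2a, Nrgn and Shank3.

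Single libraries that read far from the rest were not particular to these genes. Among the 8 genes whose median was 1 FPKM or more, 11.5% of values were under the gene's median divided by 2 and 4.17% were over 2 times that median. Over 8258 tested genes with such a median the shares were 11.4% and 4.25%. The SD within groups on the log2 scale was 0.15 for Dlg4, below that of 97.5% of genes tested, and 0.37 for Camk2b. It was 0.58 for Shank3, 0.65 for Camk2a and for Dlgap1, 0.75 for Homer1, 0.84 for Nrgn and 1.24 for Shank1. The median over the 8 genes was 0.65, against 0.60 over the 8258.

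By age, Dlg4 had a lower mean at 10 than at 3 months but was not called. The mean was 103 ± 6.46 FPKM at 10 months and 123 ± 15.1 at 3 months (SD, n = 6), a log2 difference averaged over genotypes of -0.26 ± 0.11 (SE). In limma's test it had an unadjusted p of 0.0407 and an adjusted p of 0.935, and 0 of 9 genes were called at a background of 0.0813%. An exact two-sided permutation test of the 6 against 6 values gave p = 0.0152, for a gene that was singled out after its values were seen. Among TAU58/2-labelled libraries the 10-month values, 92.1 to 103 FPKM, all lay below the 3-month values of 120 to 125. That was 1 of 9 genes without overlap, against 9.43% of all genes. In controls the ages overlapped, because 3-month control 3 was at 98.0. Each age is also a separate deposited table, so age and table cannot be told apart, and age was tested on FPKM set across the tables.

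No other of the 9 genes had an unadjusted p under 0.05 by age averaged over genotypes, where 4.4% of all genes did. Nrgn was 0.61 ± 0.44 (SE) on the log2 scale, Shank3 -0.47 ± 0.31 and Camk2b -0.19 ± 0.21. With 1 library left out, Nrgn ranged from 0.27, without 3-month control 3, to 0.93, without 3-month transgenic 1, and Shank3 from -0.65 to -0.29, the latter without 10-month control 1. In controls alone 0 of 9 were called at a background of 0.0305%, and among TAU58/2-labelled libraries 0 of 9 at 0.0203%. Genotype averaged over both ages also called 0 of 9, at a background of 0.0508%. With Shank2 left out, 7 of 8 differences were below 0, where 48.8% of all genes were. That count was 5 of 8 without 10-month transgenic 3, 8 of 8 without 3-month control 3 and 0 of 8 after pan-neuronal scaling.

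Paralogs of these genes, compared after their values were seen, were set beside them by FPKM level in each library. Dlg4 exceeded Dlg1, Dlg2 and Dlg3, the other members of its scaffold family, in 12 of 12 libraries, with means of 113, 3.47, 9.06 and 8.81 FPKM. Dlgap1 was not the leading member of its family. Dlgap3, known for its high level in rodent striatum, averaged 56.7 FPKM and exceeded Dlgap4 at 12.6, which exceeded Dlgap1, in 12 of 12 libraries each. Dlgap1 exceeded Dlgap2 (mean 2.40 FPKM) in 11 of 12. Among kinase subunits, Camk2b exceeded Camk2g (21.9 FPKM), which exceeded Camk2d (1.74 FPKM), in 12 of 12 libraries each. Shank3 exceeded Shank1, and Shank1 exceeded Shank2, in 12 of 12. Homer1 exceeded Homer2 (0.366 FPKM) and Homer3 (0.795 FPKM) in 12 of 12 libraries.

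**Figure D5:**
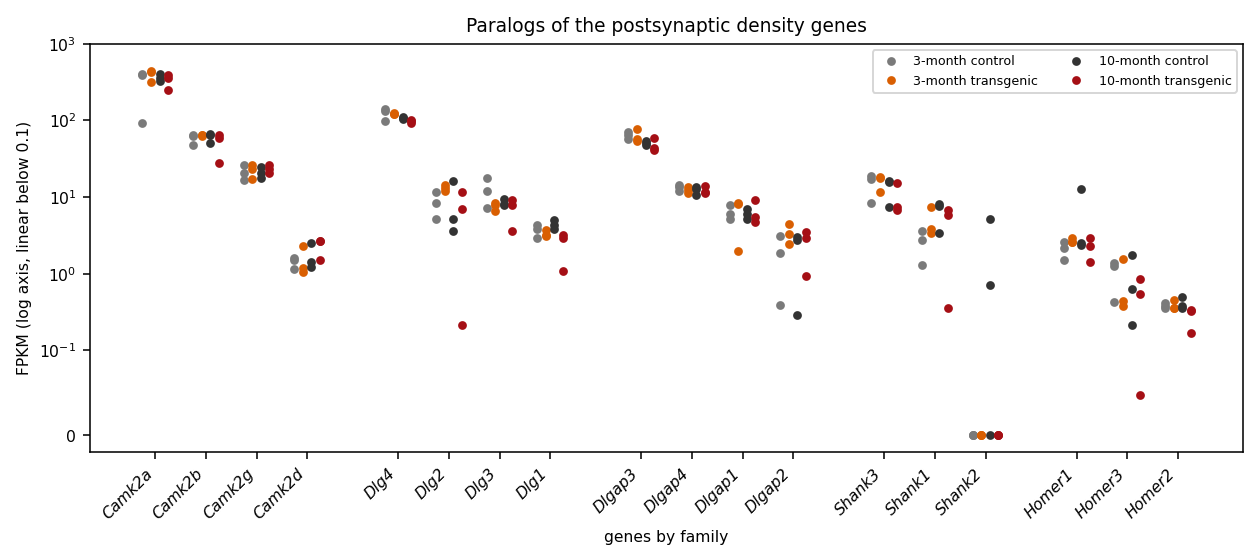
FPKM (logarithmic axis, linear below 0.1) of the members of 5 families in 12 libraries, with points coloured by age and genotype label. Camk2a, Dlg4, Dlgap3, Shank3 and Homer1 have the highest mean of their families, and single libraries lie far from the rest for Camk2a, Dlg2, Homer1 and Shank2.

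Whether the 9 genes varied as a unit could not be decided from 12 libraries. Of 36 pairs of genes, none had a correlation that passed adjustment. The closest pair by rank was Dlg4 and Shank3, with Pearson r = 0.724 and Spearman rho = 0.762 over 12 libraries (permutation p = 0.0097 and 0.0056, adjusted p = 0.348 and 0.203), and r = 0.685 without the 2 libraries farthest from the Dlg4 median. Homer1 and Shank2 gave the highest Pearson r, 0.811, with rho of 0.296 (adjusted p = 0.377 for r), where both were highest in 10-month control 3. Shank2 was listed at 0 in every library but that and 10-month control 2, so that relation rests on them. For Shank1 and Camk2b the most alike was the other (r = 0.692, and 0.145 without 10-month transgenic 3 and 3-month control 2). For the rest it was Camk2b for Camk2a (r = 0.507), Camk2a for Dlgap1 (r = 0.175) and Camk2a for Nrgn (r = 0.308). Without 3-month control 3 and 10-month transgenic 3 these 3 r were 0.231, 0.648 and -0.664. By rank, Camk2a and Dlgap1 had rho = 0.629, and Dlgap1 and Nrgn rho = -0.664 (permutation adjusted p = 0.237 for each). Camk2a and Nrgn, both pyramidal-neuron genes, had r = 0.308 but rho = -0.357.

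Standardised and averaged, the log2 levels of the 9 genes, Shank2 included, were highest in 10-month control 3 (0.85). They were lowest in 10-month transgenic 3 (-1.13) and 3-month control 3 (-0.90), with -0.07 to 0.35 in the remaining libraries. The high average in 10-month control 3 was not shared by all genes. Shank2 deviated there from its own median by 5.72 in log2, Homer1 by 2.30 and Shank1 by 1.11. The remaining genes deviated by -0.22 to 0.10. Among 9837 other tested genes, those with the most similar profile over 12 libraries were Nrp1 (r = 0.959), Gpr137c (r = 0.937), Cmtm4 (r = 0.926), Vash1 (r = 0.900) and Usp31 (r = 0.897). Without 10-month transgenic 3 and 3-month control 3 these were 0.861, 0.895, 0.574, 0.434 and 0.377. These r describe the nearest of many genes and carry no test. How they change without 10-month control 3 or without Shank2 was not tested.

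Other genes of the postsynaptic density were read from 3 lists. None of their tested members was called at either age: 0 of 19 tested of 23 other scaffolds and adaptors, 0 of 23 of 23 signalling proteins and kinase partners, and 0 of 11 tested of 13 adhesion proteins and organisers, where 0.0102% of all genes were called at 10 months and 0.0406% at 3 months. At 10 months 15 of 19, 12 of 23 and 4 of 11 had a difference below 0, beside 48.8% of all genes, with median log2 differences of -0.38, -0.01 and 0.14. At 3 months it was 12 of 19, 9 of 23 and 1 of 11, beside 47.1% of all genes, with medians of -0.08, 0.03 and 0.12. Among the tested scaffolds Dlg1, Dlg2, Dlg3 and Magi2 had their lowest value in 10-month transgenic 3, and Baiap2 its highest. The 10-month count of 15 of 19 was not repeated without that library, so its dependence on that library was not tested.

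In the scaffold list the dynein light chain Dynll2, a Dlgap-binding adaptor, was the most abundant gene at 176 ± 22.5 FPKM (SD, n = 12), with log2 differences of -0.03 ± 0.19 (SE) at 3 months and -0.01 ± 0.19 at 10 months. Dlg1 (SAP97), a relative of Dlg4, measured 3.18, 2.90 and 1.09 FPKM in 10-month libraries labelled transgenic and 3.89, 4.97 and 4.33 in their controls. The groups did not overlap, which held for 1 of 19 tested genes of this list and 8.26% of all genes at 10 months. The log2 difference of Dlg1 was -0.98 ± 0.38 (SE; unadjusted p = 0.0277, adjusted p = 0.969, limma), and -0.51 without 10-month transgenic 3. Dynll1 measured 12.4, 11.1 and 127 FPKM against 54.9, 111 and 105 at 10 months, with the groups overlapping (log2 difference -1.72 ± 0.94). Dlg3 differed by -0.40 ± 0.38 at 10 months and -0.60 ± 0.38 at 3 months, neither past the test. With 1 library left out Dlg3 ranged from -0.65 to -0.00023 at 10 months, the latter without 10-month transgenic 3. At 3 months it ranged from -0.93 to -0.30.

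Among the signalling genes Calm3, a calmodulin gene, was the most abundant at 650 ± 54.0 FPKM (SD, n = 12), and its log2 differences were -0.04 ± 0.14 (SE) and -0.01 ± 0.14 at 3 and 10 months. Agap2, which binds Homer proteins, measured 166, 160 and 179 FPKM in 3-month TAU58/2 mice and 121, 112 and 144 in controls, without overlap. It was 1 of 23 genes of this list without overlap at 3 months, beside 786 of all 9846 genes. Its log2 difference was 0.43 ± 0.13 (SE; unadjusted p = 0.0088, adjusted p = 1, limma), and at 10 months it was -0.10 ± 0.13. Camk2n2, an inhibitor of the kinase, was 71.1, 67.1 and 95.1 FPKM in 10-month libraries labelled transgenic and 1.55, 0 and 52.1 in controls, without overlap (unadjusted p = 0.0779, adjusted p = 0.969, limma). At 10 months 3 of 23 genes of this list did not overlap, beside 8.26% of all genes. At 3 months Camk2n2 ranged from 0 to 82.4 FPKM with overlapping groups. Rasgrf2, a Ras activator, differed by -1.09 ± 0.78 at 10 months and 1.65 ± 0.78 at 3 months. With 1 library left out it ranged from -1.72 to -0.33 at 10 months, the latter without 10-month transgenic 3. At 3 months it ranged from 1.17 to 2.42.

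Among the adhesion genes Ctnnb1 (beta-catenin) was the most abundant at 74.3 ± 10.4 FPKM (SD, n = 12), with a log2 difference of 0.23 ± 0.22 (SE) at 10 months. Lrrc4c and Lrrtm2, leucine-rich organisers of excitatory synapses, differed by 2.71 ± 1.55 and 0.95 ± 0.73 at 10 months. Lrrtm1 and Ctnnd2 (delta-catenin) differed by -0.23 ± 0.20 and 0.41 ± 0.35 at 3 months. None of these differences passed the test. With 1 library left out at 10 months, Lrrtm2 ranged from -0.14, without 10-month control 2, to 1.54. Ctnnb1 ranged from -0.06, without 10-month control 3, to 0.38, and Lrrc4c from 1.99 to 4.09. At 3 months Lrrtm1 ranged from -0.36 to -0.05 and Ctnnd2 from 0.16 to 0.57.

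Marker genes of the cell types in cortex were read beside the 9 genes. The tissue label fitted the excitatory marker Slc17a7, a glutamate transporter of cortical neurons, at 98.2 to 233 FPKM in every library. The summed FPKM of 12 pan-neuronal markers was 971 to 1176 in 10-month libraries labelled transgenic and 1218 to 1311 in their controls, without overlap, although 6 of the 12 had a difference above 0 and 6 below. The mean of Uchl1 was 104 FPKM against 244, with 0.606 FPKM in 10-month transgenic 1, and that of Thy1 was 148 against 202. At 3 months it was 1326 to 1421 in TAU58/2 libraries and 1119 to 1222 in controls, and Thy1, 1 of the 12, alone was 410 to 441 against 105 to 140. The sum of 13 excitatory markers was 300 to 458 FPKM against 398 to 431 at 10 months and 394 to 432 against 351 to 470 at 3 months, overlapping at both ages. At 10 months 2 of 11 tested excitatory markers had a difference above 0 and 9 below, with a median of -0.43, and none was called. Of all 9846 genes tested, 4995 were above 0 and 4802 below at that age. The sum of 9 oligodendrocyte markers was 416 to 721 FPKM in libraries labelled transgenic against 293 to 483 in controls at 10 months. It was highest in 10-month transgenic 3, and all 9 differences were above 0 with none called. Mog, Mobp, Cnp, Opalin, Ermn and Mal had their lowest value of all libraries in 10-month control 3. The 9 differences were not repeated without either library. The part of these markers in the 10-month values of the 9 genes was not tested.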

How the data were processed

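RNA was extracted from cortex with a Maxwell simplyRNA kit and made into TruSeq stranded libraries after Ribo-Zero depletion, per the labels' protocols. The submitters' processing notes name HISAT2 2.0.4, SAMtools 0.0.19, StringTie 1.3.0, R 3.4.2 and the builds mm10 and GRCm38, without options or an annotation. The authors deposited FPKM per gene and library, and group mean FPKM, in 1 table for each age. The authors also deposited for each gene a transgenic-to-control ratio, log2 of that ratio, p-values and q-values, and no label or header names the test. No column came from another sample (0). Read counts were not used here, so no depth or counting interval is given.

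Values were analysed as log2(FPKM + 0.1), so fold changes of low genes are understated. The 9846 genes that averaged 1 FPKM or more in any group entered limma 3.58.1 in R 4.3.3, with a mean per group over all 12 libraries, a trend, robust moderation and Benjamini-Hochberg adjustment over all of them at 0.05, in 7 contrasts. Libraries of a group are biological replicates, per the series' design text. Replicate numbers did not pair the libraries. Group differences of single genes and of the Camk2a to Camk2b ratio, and paired differences in level, were tested by exact permutation. Correlation coefficients came from scipy 1.17.1 and were tested with 100000 permutations. Fitting was tested on simulated data. Alternatives were other pseudocounts (0.01 and 1), filters, scalings, weights, fits and each library left out.

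The 9 genes and the lists were chosen with earlier results of these data known. The text names the 9 genes, and of the 3 other postsynaptic lists the most abundant gene and the 2 with the smallest p at each age, and the 5 genes of most similar profile. Of the genes chosen by this rule, 1 is not reported here. Transcript lengths came from GENCODE M21 and were found for 99.8% of the genes tested, and promoter sequences came from RefSeq, build GRCm38.p6.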

Additional observations from a re-analysis of the deposited data

How the results depend on the processing

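Of the 9 genes, 0 were called in any of the 7 contrasts under any alternative in which they were tested. Shank2 was listed at 0 in 10 of 12 libraries, with a highest group mean of 1.97 FPKM. It therefore failed the filters of 3 libraries above 0 and of a mean of 5 FPKM. With 1 library left out it entered 11 of 12 fits. In the settings without it only 8 of the genes were tested. No paired reading of the replicate numbers was supported: same-numbered libraries correlated at -0.123 to 0.0939, and a fit with the replicate number as a block called 0 genes by genotype at 10 months, 1 for the interaction, 1 by genotype averaged over ages and 2 by age averaged over genotypes. Counts of called genes moved with the filter, from 1, 4, 5, 3, 2, 5 and 8 by genotype at 10 and at 3 months, interaction, age in controls, age in transgenics, averaged genotype and averaged age. Requiring values above 0 in 3 libraries gave 2, 9, 9, 7, 7 and 9 for all but the last, and a mean of 5 FPKM gave 0, 2, 1 and 0 for those before age in transgenics and 2 and 2 for the averaged ones. A pseudocount of 0.01 gave 2 for the interaction and 5 for averaged age. Fitting without both the trend and the robust moderation gave 6 for age in transgenics, and each age fitted alone gave 0 at 10 and 14 at 3 months. Pan-neuronal scaling gave 1 for the interaction, 0 for averaged genotype and 2 for averaged age.

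Directions of uncalled log2 differences turned under pan-neuronal scaling: at 10 months Camk2a 0.19 and Dlg4 0.20, at 3 months Dlg4 0.27 and Dlgap1 0.012, with age in controls Dlgap1 0.0034, and by averaged genotype Camk2b 0.20, Dlg4 0.23, Dlgap1 0.19, Homer1 0.0072, Nrgn 0.072, Shank1 0.19 and Shank3 0.18. Quantile normalization gave Nrgn -0.25 for the interaction and -0.56 at 10 months, and Dlg4 0.011 at 3 months. Array weights gave Camk2b -0.0060 with age in controls and Shank1 0.22 by averaged genotype, and median-ratio size factors gave Camk2b -0.0093 with age in controls. The cause was not tested.

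When each library was left out in turn, values ranged as follows. By genotype at 10 months 0 to 8 genes were called, and the log2 differences that changed sign ranged over Camk2a -0.28 to 0.056, Camk2b -0.57 to 0.039, Dlgap1 -0.23 to 0.22, Nrgn -0.088 to 0.22, Shank1 -1.88 to 0.079. By genotype at 3 months 4 to 12 genes were called, and the log2 differences that changed sign ranged over Camk2a -0.024 to 1.05, Camk2b -0.019 to 0.21, Dlg4 -0.18 to 0.10, Dlgap1 -0.61 to 0.40, Shank3 -0.21 to 0.37. For the interaction 2 to 11 genes were called, and the log2 differences that changed sign ranged over Dlg4 -0.23 to 0.043, Dlgap1 -0.37 to 0.65. With age in controls 3 to 10 genes were called, and the log2 differences that changed sign ranged over Camk2a -0.14 to 0.93, Camk2b -0.10 to 0.17, Dlgap1 -0.19 to 0.12, Nrgn -0.39 to 0.67, Shank3 -0.55 to 0.18. With age in transgenics 2 to 13 genes were called, and the log2 differences that changed sign ranged over Dlgap1 -0.41 to 0.60, Shank1 -1.52 to 0.44. By averaged genotype 1 to 10 genes were called, and the log2 differences that changed sign ranged over Camk2a -0.086 to 0.45, Camk2b -0.22 to 0.084, Dlgap1 -0.29 to 0.22, Homer1 -0.50 to 0.092, Shank1 -0.46 to 0.52. By averaged age 2 to 14 genes were called, and the log2 differences that changed sign ranged over Camk2a -0.20 to 0.33, Camk2b -0.30 to 0.0029, Dlgap1 -0.23 to 0.28, Homer1 -0.037 to 0.56, Shank1 -0.10 to 0.87. The log2 ratio of Camk2a to Camk2b by genotype at 3 months ranged from -0.0049 to 0.83, the former without 3-month control 3. In the order of levels, Dlgap1 over Shank1 ranged from 0.46 to 0.84 in log2 and passed without 10-month control 3 (exact permutation adjusted p = 0.0435) or 3-month transgenic 1 (0.0346), and Shank1 over Homer1 ranged from 0.31 to 0.61 and passed without 10-month transgenic 3 (0.0446).

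With 3 mice a group and FPKM without read depth, differences within the intervals above were not detectable, and larger ones could also go uncalled. At 3 months the log2 difference of Thy1 was 1.83 ± 0.32 (SE), with a limma adjusted p of 0.27. That of Mapt was 2.44 ± 0.85 (limma unadjusted p = 0.0169), and it was not called either. Single libraries decided the sign at low and at high levels, as the ranges show. Age cannot be told apart from the deposited table, and the genotype labels at 10 months were not borne out by Mapt or Thy1.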
